A study of Mus musculus with 12 samples.

Results

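The interleukin-1 (IL-1) family and the inflammasome were examined in microglia, the resident macrophages of the brain, sorted from the hippocampus at 2 ages. The members were taken by gene symbol: the ligands Il1a, Il1b and Il18, the antagonist Il1rn, the receptor chains Il1r1, Il1rap and Il1rl1, and the processing genes Casp1, Nlrp3 and Pycard. Of these 10 genes, 8 had a row among the 545 immune genes of the raw table, and Nlrp3 and Pycard were not analysed here. The samples were control male Balbc mice at postnatal day 28 (P28, n = 6) and postnatal day 14 (P14, n = 6), each animal from a different litter. All were raised under the study's control condition, and no genetic change or drug is named for either age. Microglia were obtained with a Percoll gradient and flow sorting. Their RNA was measured with an nCounter panel of mouse immune genes, an assay that tags target molecules with fluorescent barcodes and counts these one by one.

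IL-1 alpha and IL-1 beta are alarm cytokines that bind the receptor chain IL-1R1, which then recruits the accessory chain IL-1RAP, and the IL-1 receptor antagonist occupies IL-1R1 without signalling. IL-1 beta and IL-18 are made as inactive precursors that caspase-1 cuts after it has been activated in an inflammasome, a complex built on a sensor such as NLRP3 and the adaptor ASC, the product of Pycard, whereas IL-1 alpha can signal without that cut. In the brain, microglia are a main source of IL-1.

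Il1a and Il1b were the members called higher at P28, and the start of each gene is shown because of it. Both lie on the minus strand of chromosome 2. The 100 bases before the annotated start are given 5′ to 3′ from RefSeq (GRCm38.p6), with the letters TATAAA in capitals.
Il1a, chr2:129309973-129310072: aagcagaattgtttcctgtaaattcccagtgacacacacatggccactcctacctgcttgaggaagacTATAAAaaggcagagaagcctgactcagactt
Il1b, chr2:129371140-129371239: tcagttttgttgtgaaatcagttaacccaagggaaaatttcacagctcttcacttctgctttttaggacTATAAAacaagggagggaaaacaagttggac
The motif begins 32 bases before the start of Il1a and 31 bases before that of Il1b, inside a stretch of 10 bases, GACTATAAAA, that both promoters hold. On the gene's own strand and beginning 40 to 20 bases before the start, TATAAA occurs in 1.99% of the 32851 promoters of the table. Of the 12 promoters listed for the 8 genes, only these 2 held it in that window. A match is a description of the letters and shows no binding.

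The depth per sample, as the sum of the raw counts over 545 genes, was 1025196 to 1534665 at P28 and 356398 to 1316430 at P14. Samples 5 (356398) and 4 (772723) had low totals among the P14 samples. Counts below are raw counts divided by a factor from 6 reference genes (scaled counts). A gene was tested when it exceeded background, the mean plus 2 SD of the lane's negative probes, in at least 40% of the 12 samples, as 366 genes did. The positive-control probes, which are added to each lane, had geometric means of 1069 to 1235 counts at P28 and 542 to 651 at P14. These ranges do not overlap, and the sources used here do not say whether the ages were run apart, so run and age cannot be told apart. In sorted bulk samples, fewer cells of a type and less RNA per cell cannot be told apart either. The labelled cell type held its markers: all 5 microglial genes on the panel were above background in these samples, and their scaled counts summed to 179639 to 220048 at P28 and 175896 to 203689 at P14, a sum carried mainly by Csf1r and Itgam. Of the 5, Trem2, a lipid-sensing receptor of microglia, rose, with 15049 ± 1261 scaled counts at P28 and 9199 ± 1729 at P14 (log2 fold change 0.71 ± 0.13, edgeR, adjusted p = 0.00069, no overlap; -0.07 with positive controls alone), and the other 4 did not pass.

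Among the 8 members tested, the ligands Il1a and Il1b rose at P28, none fell and 6 did not pass, in edgeR's quasi-likelihood test with Benjamini-Hochberg adjustment over all 366 genes at 0.05. Over all tested genes, 16.7% of genes passed as higher and 13.9% as lower. The unadjusted p was under 0.05 for 2 of the 8 members and 158 of the 366 tested genes, and DESeq2 also called 2 members higher and 0 lower. The median log2 fold change, P28 over P14, was 0.18 over the members and 0.0026 over all tested genes. By role, 2 of the 4 ligand and antagonist genes rose, 0 of the 3 receptor genes passed in either direction, and the 1 processing gene measured did not pass.

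**Figure D1:**
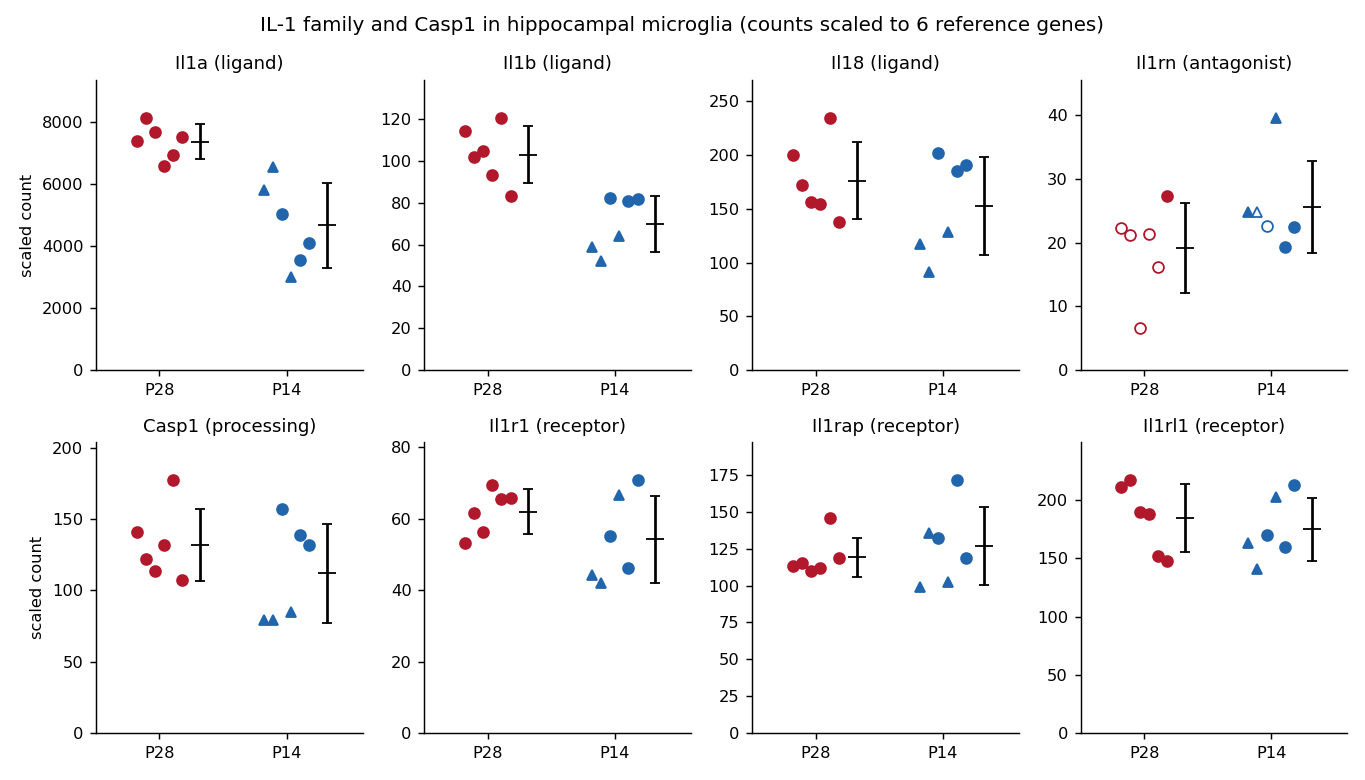
Scaled counts of the 8 members (vertical axes, linear from 0) in each P28 and P14 sample. Points are samples, bars to their right the mean and SD of 6, triangles P14 samples 4, 5 and 25, and open symbols counts not above the lane's background; Il1a and Il1b have no overlap between the ages, and Il18 and Casp1 are lowest in the 3 triangles.

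Il1a, which encodes IL-1 alpha, had 6573, 7431 and 8125 scaled counts at P28 (lowest, median and highest), against 2985, 4560 and 6547 at P14. All P28 samples lay above all P14 samples, but the nearest values were close. Those were 6573 in P28 sample 119 and 6547 in P14 sample 5. The means were 7356 ± 550 at P28 and 4665 ± 1370 at P14 (SD, n = 6 each), and the log2 fold change was 0.66 ± 0.17 (SE, edgeR, adjusted p = 0.00818), a fold of 1.58. The P14 samples were spread over a 2.19-fold range and the P28 samples over a 1.24-fold range. The high P14 values were those of samples 4 (5802) and 5, and without both samples the log2 fold change of Il1a was 0.91.

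Il1b, which encodes IL-1 beta, was counted far less often, with 82 to 159 raw counts at P28 and 21 to 98 at P14, all above background. It had 83.0, 103 and 121 scaled counts at P28 (lowest, median and highest), against 51.9, 72.4 and 82.0 at P14. The ages did not overlap, again by a narrow gap, between P28 sample 138 (83.0) and P14 sample 16 (82.0). The means were 103 ± 13.7 at P28 and 69.9 ± 13.4 at P14 (SD, n = 6 each), and the log2 fold change was 0.54 ± 0.15 (SE, edgeR, adjusted p = 0.0121), a fold of 1.46. Over all tested genes, 20.8% showed no overlap between the ages on this scale. Samples 4 and 5, high for Il1a among the P14 samples, were the lowest for Il1b. In the plot of Il1b against Il1a they sit apart from the other P14 samples, at lower right.

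The calls of both ligands depended on the scale. Il1a did not pass with TMM factors (log2 fold change 0.56, adjusted p = 0.0568), with total counts (0.47, adjusted p = 0.0740) or with positive controls alone (0.03, adjusted p = 0.931). Il1b passed with TMM factors and with total counts (0.41, adjusted p = 0.0340), and with positive controls alone it was at -0.22 (adjusted p = 0.601). Positive controls alone moved the median of all tested genes to -0.74. Relative to the median of all tested genes, Il1a stood 0.59 to 0.77 higher and Il1b 0.52 to 0.55 higher on the log2 scale under the 7 scalings run. The ages had no overlap for Il1a under 2 of the 7 scalings and for Il1b under 4. With P14 samples 4, 5 and 25 left out, which were chosen after their low Casp1 and Il18 values were seen, Il1b was at 0.34 (adjusted p = 0.0748) and Il1a at 0.80. These were also the lowest P14 samples for Il1b (51.9 to 63.9 scaled counts). Leaving them out necessarily lowers its fold change, so this is no independent check of Il1b. For Il1a, samples 4 and 5 were the highest P14 samples and sample 25 the lowest.

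**Figure D2:**
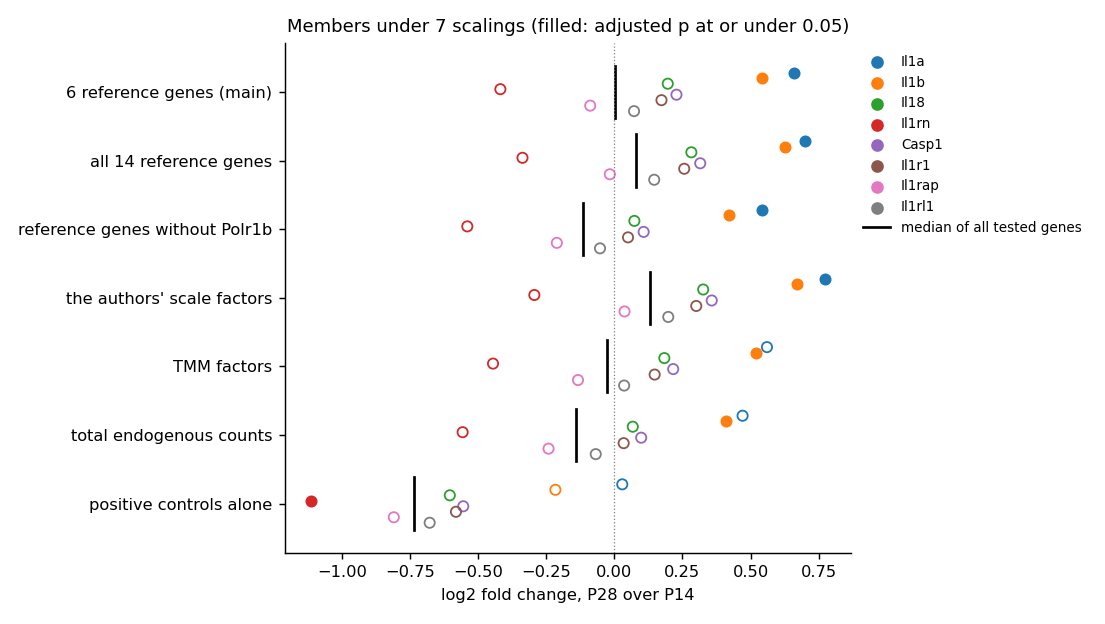
Log2 fold change, P28 over P14, of each member (coloured circles, filled where the adjusted p was at or under 0.05) under 7 scalings of the counts; black bars give the median of all 366 tested genes. The order of the members is nearly the same in each row, with Il1a and Il1b to the right of the median and Il1rn to its left, while positive controls alone shift the whole set to lower values.

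Markers of other myeloid cells that make IL-1 were read beside these values. The 6 neutrophil genes on the panel summed to 4190 to 8272 scaled counts at P28 and 2875 to 8706 at P14, with 8706 in P14 sample 5 and 6721 in P14 sample 4. That sum was carried by Csf3r, the G-CSF receptor (5186 ± 1504 at P28 and 4626 ± 2404 at P14), which did not pass. Cxcr2, a chemokine receptor of neutrophils, fell (-1.74 ± 0.16, edgeR, adjusted p = 1.4e-06) and was above background in 0 of 6 P28 and 6 of 6 P14 samples, and S100a9, a granule protein, in none. The 6 genes of monocytes and border macrophages summed to 373 to 516 at P28 and 291 to 492 at P14. Among the 5 of these tested, the chemokine Ccl24 rose (0.54 ± 0.16, edgeR, adjusted p = 0.0172), the integrin Itgal fell (-1.13 ± 0.18, edgeR, adjusted p = 0.000254) and 3 did not pass. Itgal, like Cxcr2, was above background in 0 of 6 P28 and 6 of 6 P14 samples. The falls of Itgal and Cxcr2 therefore have no defined size.

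Lymphocyte and neural genes also moved, in both directions. Of 4 T cell genes tested, Il7r (1.13 ± 0.17) and Cd5 (1.07 ± 0.20) rose, Lck fell (-1.01 ± 0.15) and 1 did not pass. Cd5 was above background in 6 of 6 P28 and 3 of 6 P14 samples, which limits the size of its rise. The 8 T cell genes on the panel summed to 4518 to 5590 at P28 and 1464 to 3006 at P14, and nearly all of that was Il7r, with 4855 ± 433 at P28 and 2211 ± 593 at P14, while Cd3e was never above background. Of 4 genes of oligodendrocytes, astrocytes and neurons, Mbp (1.36 ± 0.43) and App (0.47 ± 0.14) rose and Cx3cl1 fell (-1.73 ± 0.21). Mbp had 189 to 1091 scaled counts at P28 and 126 to 272 at P14, so the ages overlapped. It did not pass in 8 of the alternatives run. Cx3cl1 was above background in 0 of 6 P28 and 5 of 6 P14 samples, so its fall has no defined size. The part of these cells in the members' values was not tested.

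Il18, the third ligand of the set, had 138, 164 and 235 scaled counts at P28 (lowest, median and highest), against 91.5, 157 and 202 at P14. The ages overlapped, and the log2 fold change was 0.20 ± 0.20 (SE, edgeR, adjusted p = 0.529, 95% interval -0.24 to 0.63). Casp1, the protease that cuts the precursors of IL-18 and IL-1 beta, had 107, 127 and 177 scaled counts at P28, against 79.1, 108 and 157 at P14. It did not pass either (0.23 ± 0.20, edgeR, adjusted p = 0.441, interval -0.21 to 0.66).

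Il18 and Casp1 varied together from sample to sample. At P14, both were low in samples 4, 5 and 25 (91.5 to 129 for Il18 and 79.1 to 84.6 for Casp1) and high in samples 16, 61 and 81 (185 to 202 and 132 to 157). The positive-control probes split the P14 samples in the same way, with geometric means of 645 to 651 counts in samples 4, 5 and 25 and 542 to 570.5 in the other 3, and the part of the lanes in the 2 genes' values was not tested. At P28, sample 137 was the highest for both and sample 138 the lowest. Within an age, the log2 scaled count of Il18 had an SD of 0.38 and that of Casp1 0.37, but the log2 ratio of their raw counts had an SD of 0.13. Of the 66795 pairs of tested genes, 0.996% had a smaller SD. This is a description of 12 samples that share lane, depth and input RNA between the genes. The ratio Il18/Casp1 averaged 0.41 ± 0.10 at P28 and 0.44 ± 0.15 at P14 (SD, n = 6 each, exact permutation p = 0.649). Without P14 samples 4, 5 and 25, the log2 fold change was -0.13 for Il18 and -0.11 for Casp1. Leaving out the lowest P14 values of both genes necessarily lowers these fold changes.

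**Figure D3:**
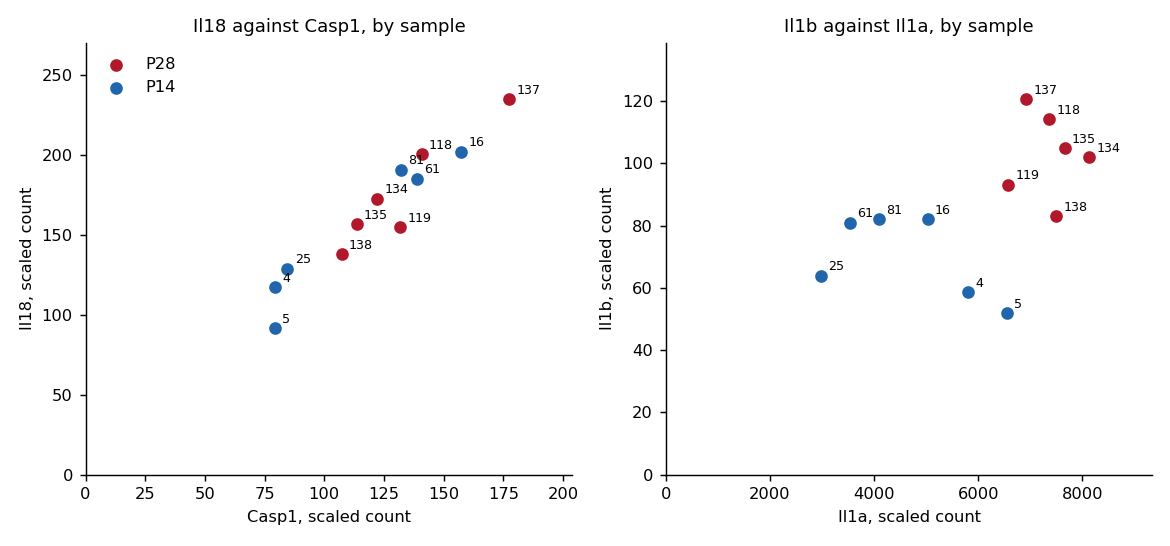
Scaled counts of Il18 against Casp1 (left) and of Il1b against Il1a (right), 1 point per sample with its number, P28 in red and P14 in blue. Il18 and Casp1 lie along a line with the ages mixed, whereas P28 samples lie at upper right for Il1a and Il1b and P14 samples 4 and 5 combine high Il1a with low Il1b.

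Il1rn, which encodes the antagonist of IL-1R1, was close to background: 1 of 6 samples at P28 and 4 of 6 at P14 exceeded it. Il1rn had 6.68, 21.3 and 27.3 scaled counts at P28 (lowest, median and highest), against 19.3, 23.7 and 39.6 at P14. The log2 fold change was -0.42 ± 0.26 (SE, edgeR, adjusted p = 0.251, interval -0.98 to 0.15), and the ages overlapped. The highest value was that of P14 sample 25 and the lowest that of P28 sample 135, with 7 raw counts. At this depth most of the P28 values give only an upper limit to Il1rn, so a fall cannot be sized.

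No receptor chain passed the test. Il1r1, the signalling receptor of both IL-1 forms, had 53.1, 63.6 and 69.4 scaled counts at P28 (lowest, median and highest), against 42.0, 50.7 and 70.8 at P14, a log2 fold change of 0.17 ± 0.15 (edgeR, adjusted p = 0.429, interval -0.15 to 0.49). Of the P14 samples, 3 lay below all P28 samples and 1 lay above them. Il1rap, the accessory chain that the receptors of IL-1 and IL-33 share, had 110, 114 and 146 scaled counts at P28, against 99.1, 126 and 171 at P14 (-0.09 ± 0.15, edgeR, adjusted p = 0.703, interval -0.41 to 0.23). At P28, 5 of its 6 samples lay between 110 and 118. Il1rl1, the IL-33 receptor ST2, had 148, 189 and 217 scaled counts at P28, against 141, 166 and 213 at P14 (0.07 ± 0.15, edgeR, adjusted p = 0.728, interval -0.24 to 0.39). Its ranges nearly coincided. Il1rl1 is also a marker of mast cells, and of the 2 other mast cell genes on the panel, which summed to 24.5 to 37.3 scaled counts at P28 and 16.9 to 37.1 at P14, Fcer1a was never above background. ST2 is found on innate lymphoid cells too, and the 7 genes of these and natural killer cells summed to 235 to 359 at P28 and 116 to 244 at P14, with Gata3 and Il5 never above background. Of the 4 of these tested, Klrd1 rose (2.72 ± 0.21) and Klrk1 (-1.35 ± 0.21) and Gzma (-0.82 ± 0.21) fell. Klrd1 was above background in 6 of 6 P28 and 2 of 6 P14 samples. Klrk1 and Gzma were each above it in 0 of 6 P28 and 5 of 6 P14 samples. The fold changes of Klrd1, Klrk1 and Gzma therefore have no defined size. Il1r1 is found on endothelial cells, and the 3 endothelial and mural genes summed to 1857 to 2941 at P28 and 2073 to 3345 at P14, with Cdh5 lower (-0.63 ± 0.15) and Pdgfrb higher (0.41 ± 0.14) at P28. The ages overlapped for both Cdh5 and Pdgfrb. Pdgfrb did not pass in 12 of the alternatives run, against 0 for Cdh5. With positive controls alone, Pdgfrb was at -0.35, and Ccl24 and App, given above, were at -0.14 and -0.31. The part of these cells in the receptors' values was not tested.

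The authors' deposited table, scaled with their own factors, lists 7 of the 8 members and not Il1rn. The fold of P28 over P14 in the authors' deposited table is 1.61 for Il1b, 1.71 for Il1a and 1.25 for Il1r1, with the authors' unadjusted p-values, which are not from an exact test, of p = 0.0002, 0.0007 and 0.0298. For Casp1, Il18, Il1rl1 and Il1rap the authors' deposited table gives folds of 1.02 to 1.29, with p (again not exact) from 0.0781 to 0.7973. With the authors' factors and the edgeR test used here, Il1r1 was at 0.30 (adjusted p = 0.123).

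Ratios of 2 members within a sample use no scale factor. In all, 9 such pairs were compared, with an exact two-sided permutation test over the 924 arrangements of the samples, which allows no p under 0.00216, and with adjustment over all 66795 pairs of tested genes. Of those pairs, 36.3% passed, as did 3 of the 9. Of the 3, 2 have Il1rn as denominator, a gene above background in only 1 P28 and 4 P14 samples. The count of 3 therefore rests mainly on a gene near background. Only Il18/Il1b passed with both genes above background in all samples. A ratio of raw counts compares probes of unequal efficiency, so only its difference between ages is read.

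Il18 lost ground to Il1b. The log2 ratio Il18/Il1b averaged 0.76 ± 0.13 at P28 and 1.08 ± 0.19 at P14 (SD, n = 6 each), a difference of -0.32 (exact p = 0.00649, adjusted p = 0.0225). Of the P28 samples, 4 lay below all P14 samples. The ratio did not pass with a pseudocount of 20 (-0.22, adjusted p = 0.176) or without P14 sample 81 (-0.29, adjusted p = 0.0505). The ratio Il1b/Casp1 was higher by 0.29 at P28, with 4 of 6 P28 samples above all P14 samples, and did not pass (exact p = 0.0260, adjusted p = 0.0657). Il1b/Casp1 passed in 4 of the alternatives run, with an adjusted p of 0.0370 to 0.0493 (permutation test). These were the negative-probe mean subtracted and P14 sample 4, sample 25, or samples 4, 5 and 25 left out. Those samples had the highest P14 values of this ratio (-0.58 to -0.40). Leaving them out necessarily lowers the P14 mean and so widens the difference.

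The other 2 ratios that passed were those to Il1rn, and they have no defined size, since Il1rn was not above background in 5 of 6 P28 samples and 2 of 6 P14 samples. As counted, the log2 ratio Il1a/Il1rn averaged 8.62 ± 0.70 at P28 and 7.43 ± 0.63 at P14 (SD, n = 6 each, exact p = 0.00216, adjusted p = 0.00994), without overlap, which 21.8% of all pairs also showed. Il1b/Il1rn averaged 2.47 ± 0.77 at P28 and 1.42 ± 0.54 at P14 (SD, n = 6 each, exact p = 0.0173, adjusted p = 0.0477). With counts raised to the lane threshold where they lay under it, an alternative added after the values were seen, the differences were 0.77 for Il1a/Il1rn (adjusted p = 0.0109, permutation test) and 0.62 for Il1b/Il1rn (adjusted p = 0.0984, permutation test). Il1a/Il1rn did not pass without P14 samples 4, 5 and 25 (adjusted p = 0.0831), and Il1b/Il1rn did not pass in 15 of its 17 alternatives, including 10 of the 12 that leave out 1 sample.

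The ratio Il1b/Il1a did not pass (-0.15, exact p = 0.587). P14 samples 4 and 5 had the lowest values, -6.60 and -6.91, against -5.92 to -5.43 in the other P14 samples and -6.48 to -5.83 at P28. Without these 2 samples the difference was -0.53 (adjusted p = 0.0396, permutation test), with Il1a gaining on Il1b. Leaving out the lowest P14 values necessarily raises the P14 mean and so widens the difference. The ratio Il1b/Il1a passed in only 1 alternative, this one. It did not pass without P14 samples 4, 5 and 25 (-0.49, adjusted p = 0.0831) or with a pseudocount of 20 (-0.35, adjusted p = 0.182, permutation test for both). The receptor pairs Il1r1/Il1rap (0.28), Il1rl1/Il1rap (0.15) and Il1rl1/Il1r1 (-0.13) did not pass (exact p = 0.229 to 0.522). Il1rl1/Il1r1 had an SD of 0.34 at P28 and 0.11 at P14.

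**Figure D4:**
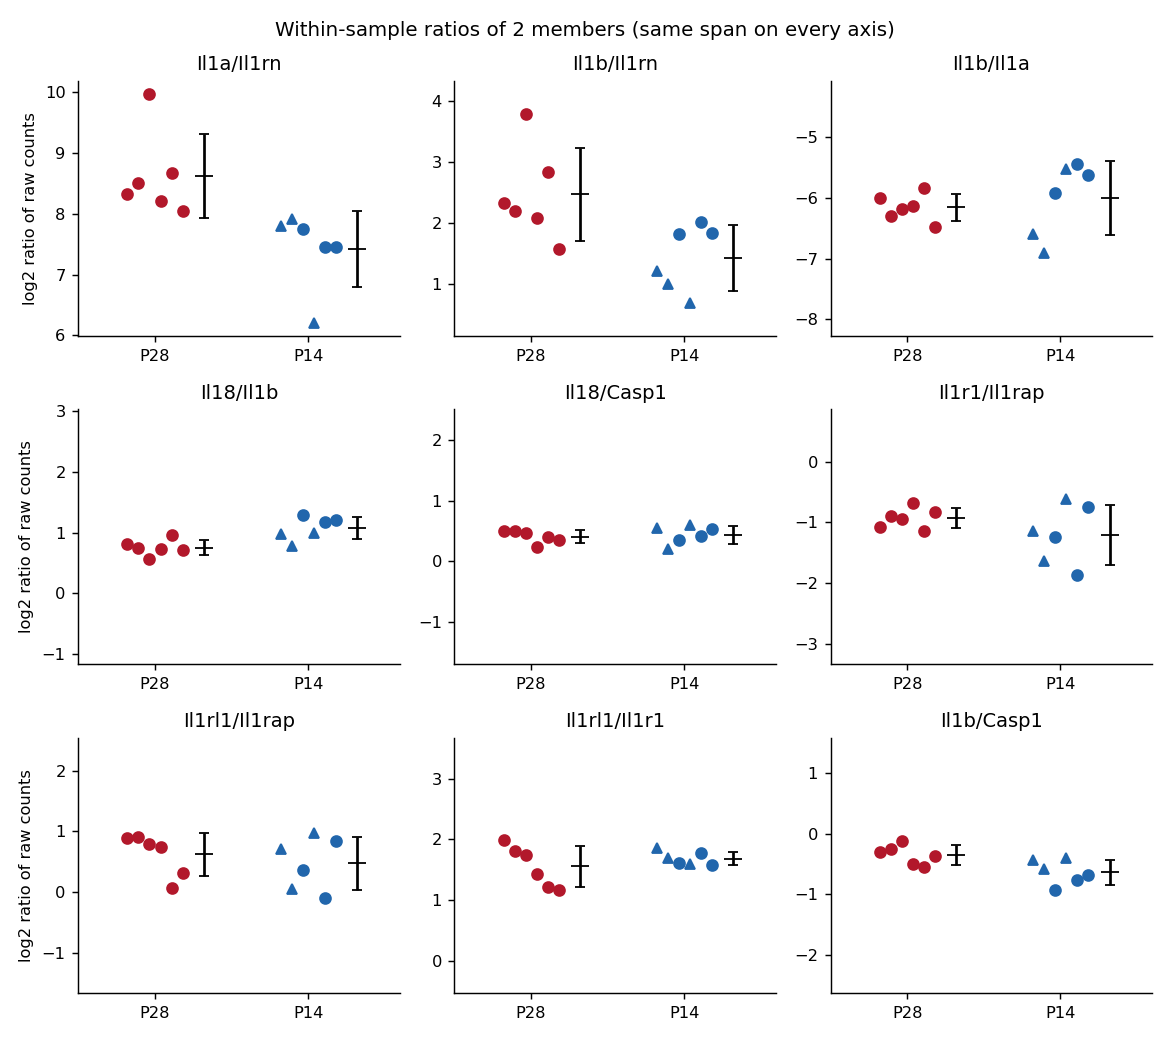
Log2 ratio of the raw counts of 2 members in each sample for 9 pairs (vertical axes, each with the same span), P28 left and P14 right. Points are samples, triangles P14 samples 4, 5 and 25, and bars the mean and SD of 6; Il1a/Il1rn has no overlap between the ages, though Il1rn was mostly not above background at P28, and Il18/Casp1 has the smallest spread.

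Each member was also set against each of the other 365 tested genes in the same way. The ratio to the other gene was higher at P28 in 171 pairs for Il1b and lower in 18, and higher in 139 and lower in 8 for Il1a. The corresponding median over all tested genes was 36 higher and 38 lower. Of the tested genes, 50 had more higher ratios than Il1a and 35 had more than Il1b. Il18 and Casp1 had 60 and 61 higher and 26 and 19 lower, Il1rn, from counts near background, 3 higher and 69 lower, and the receptor chains 27 to 61 higher and 31 to 61 lower.

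Other genes of the pathway were read from lists chosen with earlier results of these data known. Of 20 further IL-1 family ligands and receptors named, 6 were on the panel and 2 could be tested. Sigirr, an orphan receptor that dampens IL-1 and Toll-like receptor signalling, fell to 30.0 ± 7.96 scaled counts at P28, against 56.1 ± 13.0 at P14 (log2 fold change -0.91 ± 0.20, edgeR, adjusted p = 0.00328). It was above background in 5 of 6 P28 and 6 of 6 P14 samples. The P28 counts lay near background, which limits the size of the fall, and with the negative-probe mean subtracted Sigirr was at -1.3. Il1rl2, the receptor of IL-36, had 282 ± 48.2 scaled counts at P28 and 225 ± 26.2 at P14 and did not pass (0.32 ± 0.14, edgeR, adjusted p = 0.0924), though it passed with the authors' scale factors (0.45, adjusted p = 0.0183). Il33, the ligand of Il1rl1, and Il1r2, the decoy receptor of IL-1, were above background in 0 of 12 samples, and Il18r1 and Il18rap, the receptor of IL-18, in 4 and 1 samples.

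Of 13 tested genes that act downstream of the IL-1 receptors, 3 rose, 1 fell and 9 did not pass, with a median log2 fold change of 0.22. Over all 366 tested genes, 16.7% passed as higher and 13.9% as lower. The counts of downstream genes were 2 higher and 3 lower without Polr1b among the reference genes, 3 and 3 with total counts, 0 and 3 with positive controls alone, and 2 and 2 without P14 samples 4 and 5. Over all 366 tested genes the counts were, in the same order, 50 and 74, 51 and 96, 8 and 127, and 68 and 90. Irak2, a kinase-like adaptor that carries the receptor signal, rose (0.49 ± 0.12, edgeR, adjusted p = 0.00812), as did Irak3, a member of the same family that restrains that signal in macrophages (0.56 ± 0.14, edgeR, adjusted p = 0.00554), and the NF-kB subunit Rela (0.47 ± 0.15, edgeR, adjusted p = 0.0225). With positive controls alone the 3 were at -0.31, -0.20 and -0.32. Rela also did not pass without Polr1b (0.36, adjusted p = 0.0888), without P14 samples 4 and 5 (0.36, adjusted p = 0.0625) or without samples 4, 5 and 25 (0.31, adjusted p = 0.141). The NF-kB precursor Nfkb1 fell (-0.68 ± 0.18, edgeR, adjusted p = 0.00818). Myd88, the adaptor through which IL-1 receptors signal, did not pass, with 204 ± 24.6 scaled counts at P28 and 255 ± 54.8 at P14 (edgeR, adjusted p = 0.131).

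Of the other inflammasome and related sensor genes, 3 of 24 named were on the panel. Card9, an adaptor of C-type lectin signalling, fell (-0.41 ± 0.11, edgeR, adjusted p = 0.0112; -0.29 and adjusted p = 0.0734 with the authors' factors), while Casp8 (0.10 ± 0.18) and Nod2 (0.05 ± 0.20) did not pass. Nod2 was above background in only 2 of 6 P28 and 3 of 6 P14 samples. Of 14 genes on the panel that IL-1 is known to induce, 7 could be tested: 2 rose, 0 fell and 5 did not pass, with a median of 0.14. The shares over all 366 tested genes were 16.7% higher and 13.9% lower. The number of these induced genes that fell depended on the scale: it was 3 without Polr1b, with total counts and with positive controls alone, and 2 with DESeq2's median of ratios. Of all 366 tested genes, 74, 96, 127 and 71 fell on these scales, in the same order. Tnf, the inflammatory cytokine, rose (0.88 ± 0.17, edgeR, adjusted p = 0.000945), as did Nfkbiz, a nuclear co-regulator of NF-kB (0.73 ± 0.18, edgeR, adjusted p = 0.00587); both calls were lost with positive controls alone (0.14 and 0.05). Nos2, the inducible nitric oxide synthase, had 36.2 ± 6.83 scaled counts at P28 and 26.2 ± 4.78 at P14 and missed the threshold (edgeR, adjusted p = 0.0505). Tnfaip3, a feedback inhibitor of NF-kB, had 707 ± 77.4 at P28 and 984 ± 351 at P14, and the chemokine Ccl20 had 22.6 ± 7.67 at P28 and 31.3 ± 2.61 at P14 (edgeR, adjusted p = 0.0924 for each). Il6, Ptgs2 and Cxcl1 were too rarely above background to be tested.

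**Figure D5:**
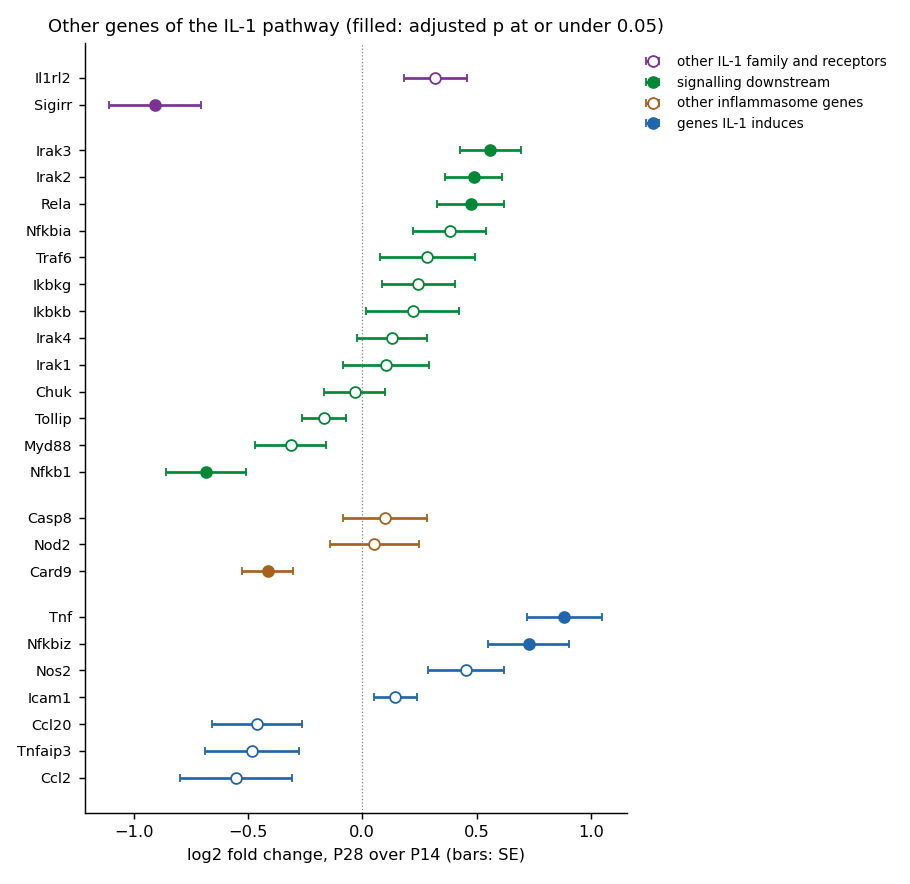
Log2 fold change, P28 over P14, with its SE (horizontal axis) for the tested genes of 4 lists around the IL-1 pathway, sorted within each list; filled points passed an adjusted p of 0.05. Irak2, Irak3, Rela, Tnf and Nfkbiz lie to the right and Sigirr, Nfkb1 and Card9 to the left among the genes that passed.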

How the data were processed

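The nCounter input was cDNA from 2 ng of RNA after 5 PCR rounds, per the labels' protocols. The authors deposited raw barcode counts per probe and a second table of scaled values, treated as a score. The labels' design text says that these were scaled to positive controls and reference genes. That deposited table also gives a fold (a ratio of means) and a p-value per gene. The counting software and a genome build are not given in the sources used here. Because amplified copies are not independent, counting error understates the true error.

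Sample titles gave the age groups. Counts were scaled to the geometric mean of Alas1, Gapdh, Oaz1, Polr1b, Sdha and Tbp and tested by glmQLFit and glmQLFTest of edgeR 4.0.16 under R 4.3.3, with age as the only term, Benjamini-Hochberg over 366 genes. Log2 ratios used a pseudocount of 1. Alternatives were DESeq2 1.42.0, limma 3.58.1, 6 other scalings, other filters and samples left out. The code was tested on simulated data. All 8 members matched RefSeq by accession. Replicate libraries differed by far more than counting noise (chi-square per degree of freedom of at least 8.75 in each of 15 pairs per age). Members, gene lists and pairs were chosen with earlier results of these data known; the text names all members, and of each pathway list the genes that passed and up to 4 with the smallest adjusted p. Myd88, untested genes and cell type markers were named with their values known.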

Additional observations from a re-analysis of the deposited data

Results flagged for a closer look

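In 34 groups of 6 values (8 members and 9 ratios at each age), 4 held a sample whose gap to its nearest neighbour exceeded 0.625 of the group's range, the 95% limit; chance alone gives about 1 in 20. Il1rn had 39.6 scaled counts in P14 sample 25, against 19.3 to 24.8 in the other P14 samples. Il1rap had 146 scaled counts in P28 sample 137, against 110 to 118 in the other P28 samples. The log2 ratio Il1a/Il1rn was 9.97 in P28 sample 135, against 8.05 to 8.67 in the other P28 samples, and 6.20 in P14 sample 25, against 7.45 to 7.91 in the other P14 samples. P28 sample 135 had 7 raw counts of Il1rn, not above background, so its ratio has no defined size.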

How the results depend on the processing

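The number of members higher at P28 was 2 in 25 of the 29 alternatives, among them each sample left out in turn (2 in all 12). It was 0 with positive controls alone and 1 with total counts, with TMM factors and without P14 samples 4, 5 and 25. The number lower was 0 except with positive controls alone, where it was 1: Il1rn at -1.11 (adjusted p = 0.0220). Leaving out 1 sample gave 0.56 to 0.78 for Il1a and 0.48 to 0.60 for Il1b. With positive controls alone the log2 fold change changed sign for Il1b (-0.22), Il18 (-0.60), Il1r1 (-0.58), Il1rl1 (-0.68) and Casp1 (-0.55). Without P14 samples 4 and 5 it did so for Il18 (-0.0026) and Il1rl1 (-0.014), and without samples 4, 5 and 25 for Il18 (-0.13) and Casp1 (-0.11). Il1rl1 was at -0.053 without Polr1b and -0.068 with total counts. Il1rap was at 0.037 with the authors' factors, 0.050 with limma on the authors' values and -0.15 to 0.020 with 1 sample left out, the highest without P14 sample 61. The ratio Il18/Casp1 was at -0.082 to 0.0020 with 1 sample left out, the highest without P28 sample 119. P14 samples 4, 5 and 25 were the lowest P14 samples for Il18 and Casp1, so leaving them out necessarily lowers both fold changes. The cause of the other changes was not tested. Il1rn had no value on the authors' table or under the strict presence rule. Low counts limit Il1rn most. No paired analysis was possible because the ages share no sample numbers.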
